A study of Mus musculus with 426 samples.

Results

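CD45+ cells and GFP+ cells sorted from the same primary pancreatic tumours were compared gene by gene, by the share of cells that carried the gene's RNA and by the mean log level over cells. Every cell had the same weight in its mouse, so that a single deeply read cell could not set a value. Of 420 single cells in the series, 132 entered: 56 of 58 CD45+ and 76 of 96 GFP+ cells of the primary tumour had at least 500 detected genes and 10000 RNA counts. The same filter was passed by 370 of the 420 cells, and bulk libraries were left out. Mice 1, 2 and 3 gave 22, 20 and 14 CD45+ cells and 31, 18 and 27 GFP+ cells.

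Both gates came from the same 3 animals. Cells of KPC1199-EGFP, a pancreatic tumour line of the mouse that carries green fluorescent protein (GFP), were placed in matrigel in the pancreas of male C57BL/6 mice aged 6 to 8 weeks, at 50000 cells per animal, and the tumours grew for 6 to 8 weeks. GFP+ cells, labelled tumour, therefore descend from 1 injected line, and the sources used here do not say whether the line is a clone. CD45+ cells, labelled stromal, are host cells that carried the CD45 antibody, and both gates carry a stain labelled Calcien Violet for living and dead cells. No treatment separates the gates.

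CD45, encoded by Ptprc, is a transmembrane phosphatase of nucleated blood cells that sets the threshold of antigen receptor signalling. Pancreatic tumours are known for infiltrates rich in macrophages and neutrophils, while the tumour cells of transplanted lines often carry keratins together with genes of a mesenchymal programme, such as vimentin and collagens. In amplified single-cell libraries the read number differs widely between cells, and a sum of reads follows the few cells with most reads.

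Levels are a cell's counts scaled to a fixed total (CPM), a share of the cell's RNA and not an amount per cell. A cell was counted as expressing a gene at 10 CPM or more, and the mean level was the mean of log2(CPM+1) over the cells of a mouse. A difference is CD45+ minus GFP+ over 3 mice a side, in percentage points of cells or in log2 units, and a gene is called higher or lower when limma's Benjamini-Hochberg adjusted p over 13024 genes was under 0.05. limma pooled the spread of all genes at a given mean level almost completely (median degrees of freedom 5.21e+04), so a gene's own scatter between mice hardly entered its standard error (SE). Each mouse's value is therefore given.

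The libraries of the gates differed in depth and in background. Kept CD45+ cells had 10805 to 7356936 RNA counts (median 784903) and GFP+ cells 12577 to 17845616 (median 1614521). A median of 1739 genes per CD45+ cell and 3128.5 per GFP+ cell stood at 10 CPM or more (means 3269 and 3507). The order differed between mice: the medians were 4163, 1880.5 and 1336 for CD45+ and 2771, 4073 and 2785 for GFP+ cells of mice 1, 2 and 3. Olfactory receptor genes, 1107 genes that are silent outside sensory neurons, served as a measure of background, which exonic DNA reads counted as RNA can enter: on average 9.62, 3.16 and 2.05% of them stood at 10 CPM or more in CD45+ cells of mice 1, 2 and 3, against 2.74, 3.63 and 0.0335% in GFP+ cells. Over 5% of them did so in 18 of the 56 CD45+ and 10 of the 76 GFP+ cells, 12 and 6 of these in mouse 1. The part of this background in the results was not tested. Counts of calls are also given without these 28 cells, an alternative chosen after the data were seen.

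More genes were called lower than higher in CD45+ cells. By mean level CD45+ cells had 187 genes up (1.44% of 13024) and 902 down (6.93%), 8.36% in either direction; by the share of expressing cells 68 (0.522%) were up and 670 (5.14%) down, 5.67% in either direction. Both fits called 67 genes higher (0.514%) and 544 lower (4.18%), and for 66 (0.507%) of the former and 504 (3.87%) of the latter no mouse of one gate overlapped the other gate in either measure. Such absence of overlap, called or not, held for 424 genes (3.26%) with CD45+ cells above and 1916 (14.7%) with CD45+ cells below. At limma's unadjusted p under 0.05, 537 of the 13024 genes were higher and 2175 lower by mean level, and 286 and 1995 by share. These are the background for unadjusted counts of list members. Over all tested genes the median difference was -0.09 on the log2 scale and -3.09 percentage points. edgeR on counts summed per mouse called 173 genes higher (0.908%) and 37 lower (0.194%) of 19059, a split in the opposite direction, with a median difference of -0.44 over the same genes. Of the 173 and 37 genes, 107 (61.8% of edgeR's, 57.2% of the mean fit's) and 26 (70.3% and 2.88%) were also called by mean level.

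These counts moved with single mice. By mean level 2230 genes were called without mouse 1 (288 higher and 1942 lower), against 1089 with all mice. Without mouse 2 there were 180 (31 and 149) and without mouse 3 there were 67 (46 and 21). Without CD45+ cells of mice 1, 2 and 3 there were 997 (250 and 747), 682 (99 and 583) and 409 (150 and 259). Without GFP+ cells of mice 1, 2 and 3 there were 1479 (170 and 1309), 320 (82 and 238) and 321 (67 and 254). These numbers, each of 13024 genes, are the background for list counts in the same leave-outs. By the share of cells, against 738 in all, 477, 267 and 191 were called without mice 1, 2 and 3, 338 without CD45+ cells of mouse 3, and 213 and 311 without GFP+ cells of mice 2 and 3. Without the 28 cells of high olfactory receptor background 192 genes were higher and 1421 lower by mean level and 115 and 1659 by share, over 7581 genes; by mean level this is 2.53% higher and 18.7% lower, the background for list counts in that setting.

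**Figure D1:**
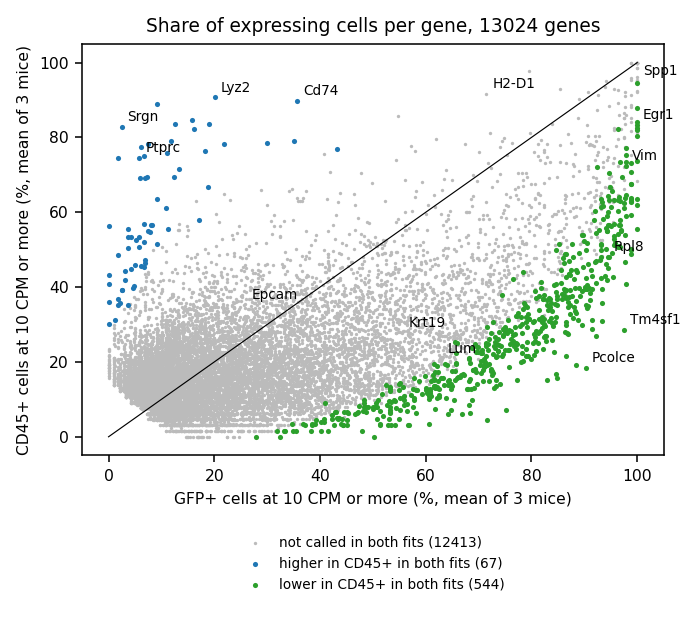
Each point is 1 of 13024 genes, placed by the mean percentage over 3 mice of GFP+ cells (x axis) and CD45+ cells (y axis) at 10 CPM or more; the line marks equal shares. The 67 genes higher in CD45+ cells in both fits (blue) lie at the upper left, and the 544 lower (green) lie below the line of equal shares, up to broadly expressed genes such as Egr1 at the upper right.

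General leukocyte genes were higher in CD45+ cells. Ptprc itself stood at 10 CPM or more in 86.4, 80 and 57.1% of CD45+ cells of mice 1, 2 and 3, and in 6.45, 11.1 and 0% of GFP+ cells. The gates did not overlap, and the mean level differed by 4.61 on the log2 scale (SE 0.85, limma adjusted p = 1.89e-05). Of 16 pan-leukocyte genes, all of which passed the gene filter, 14 were higher by mean level and 12 in both fits, with a median difference of 55.4 percentage points. Each of the 56 CD45+ cells expressed at least 3 of the 16 genes (median 10, highest 15). The median GFP+ cell expressed 1, 26 of 76 expressed none, and 14 of 76 expressed 3 or more. Without the high-background cells 14 of 15 tested were called, and 10 to 14 when a mouse or a gate of a mouse was left out. Genes of other cell types were also seen: 31 of the 56 CD45+ cells expressed 3 or more of 22 fibroblast genes, as did 65 of 76 GFP+ cells. The part of such RNA in either gate was not tested.

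Srgn, the proteoglycan core of secretory granules, had the widest gap in the share of cells. It was expressed by 77.3, 100 and 71.4% of CD45+ cells against 0, 0 and 7.41% of GFP+ cells, and its mean level was 6.96 higher (SE 0.91, limma adjusted p = 9.49e-11). Lcp1, the leukocyte actin bundler L-plastin, followed with 90.9, 90 and 85.7% against 12.9, 11.1 and 3.70%. These values put Lcp1 in nearly all CD45+ cells of each mouse, with a log2 difference of 5.88 (SE 0.91, adjusted p = 8.33e-08). Plek, the platelet and leukocyte protein pleckstrin, was expressed by 63.6, 90 and 100% against 16.1, 16.7 and 14.8% of cells. Its log2 difference was 5.83 (SE 0.93, adjusted p = 2.38e-07).

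Signalling chains of myeloid receptors were among the 12 genes with the widest gap. Fcer1g, the gamma chain shared by Fc receptors, was expressed by 63.6, 95 and 78.6% of CD45+ cells and by 0, 16.7 and 18.5% of GFP+ cells. Tyrobp, the adaptor DAP12, was expressed by 72.7, 95 and 57.1% against 3.23, 5.56 and 11.1%. In both genes mouse 2 had the highest CD45+ share, and no GFP+ mouse came near the lowest CD45+ mouse. Lilrb4a and Lilr4b, immunoglobulin-like receptors that are close relatives in sequence, differed by 72.7 and 70.9 percentage points. The authors' counting could have split reads between them. The survival gene Bcl2a1b differed by 71.2 percentage points. It belongs to a set of near-identical copies, whose counts the authors' counting could have split.

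**Figure D2:**
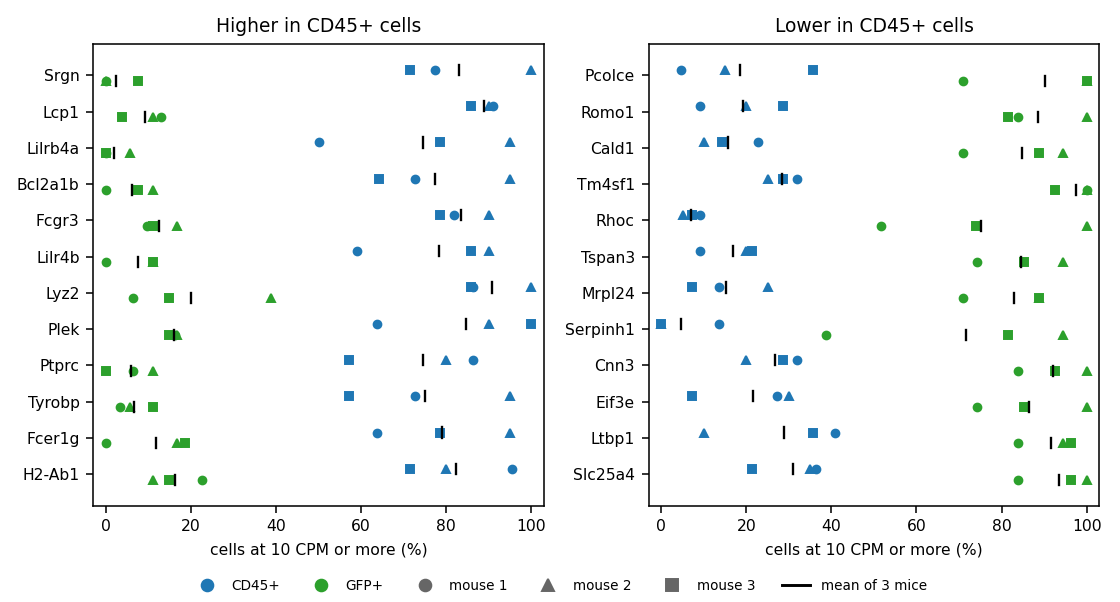
Percentage of cells at 10 CPM or more (x axis) for the 12 genes with the widest gap in each direction among those called in both fits without overlap of mice, with blue for CD45+, green for GFP+, a symbol per mouse and a bar for the mean of 3 mice. For Srgn the CD45+ mice lie between 71.4 and 100% and the GFP+ mice between 0 and 7.41%, and for Pcolce the order is the opposite.

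Most tested macrophage and monocyte genes were higher in CD45+ cells by mean level. Of 22 tested of 23 listed, 15 were higher by mean level, 8 of them in both fits, and Spp1 was lower; the median difference was 30.7 percentage points. Lyz2, the lysozyme of myeloid cells, was expressed by 86.4, 100 and 85.7% of CD45+ cells against 6.45, 38.9 and 14.8% of GFP+ cells. The highest GFP+ mouse was mouse 2, whose CD45+ cells were also highest, and the log2 difference was 7.02 (SE 0.97, limma adjusted p = 7.67e-10). Fcgr3, a receptor for immunoglobulin G, was expressed by 81.8, 90 and 78.6% against 9.68, 16.7 and 11.1%, with a log2 difference of 7.26 (SE 0.95, adjusted p = 9.49e-11). Ctss, the lysosomal protease cathepsin S, differed by 58.2 percentage points. Without the high-background cells 14 of 17 tested were higher; without mouse 2 there were 3, without mouse 3 there were 7, without CD45+ cells of mouse 2 there were 8 and without GFP+ cells of mouse 3 there were 9.

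Neutrophil genes were higher in part. Of 18 listed, 12 passed the gene filter and 8 were higher by mean level, 4 of them in both fits. The 8 were S100a8, S100a9, Csf3r, Il1b, Clec4d, Clec4e, G0s2 and Il1r2, while Ly6g, Retnlg, Mmp8, Camp, Ltf and Elane did not pass the filter. Il1b, the cytokine interleukin 1 beta, was expressed by 68.2, 90 and 92.9% of CD45+ cells against 3.23, 27.8 and 25.9% of GFP+ cells. Its log2 difference of 7.76 (SE 0.97, limma adjusted p = 1.96e-11) left no overlap between the gates. Il1r2, the decoy receptor of interleukin 1, differed by 50.1 percentage points. S100a8 was expressed by 22.7, 40 and 42.9% of CD45+ cells and by 0, 11.1 and 0% of GFP+ cells, so most CD45+ cells lacked it. Without the high-background cells 7 of 9 tested were higher; of the 12 genes, 3 were higher without mouse 2, 2 without mouse 3, and 5 without GFP+ cells of mouse 2 or of mouse 3.

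Few lymphocyte genes were called. Of the 56 CD45+ cells 25 expressed 3 or more listed T and natural killer cell genes and 19 expressed none. Of 14 tested T and natural killer cell genes, Cd3e and Nkg7 were higher by mean level; no member was called by the share of cells, where 3 stood at an unadjusted p under 0.05, and edgeR on sums called 6. Cd3e, a chain of the T cell receptor complex, was expressed by 40.9, 15 and 14.3% of CD45+ cells and by no GFP+ cell of any mouse, with a log2 difference of 1.83 (SE 0.60, limma adjusted p = 0.0350). The granule membrane gene Nkg7 was expressed by 36.4, 15 and 7.14% against 0% in each GFP+ mouse. Both genes passed the gene filter, at least 10 cells of both gates together, through CD45+ cells alone. The filter thus fixed the direction of their share, and their calls are not separate support for it. In both, mouse 1 had the highest share, and mouse 1 also had most CD45+ cells of high olfactory receptor background, with both genes untested for too few expressing cells once those were left out. Neither gene was called without mouse 2, without mouse 3 or without GFP+ cells of any 1 mouse, nor by limma without a trend (adjusted p = 0.0676 and 0.0657) or with genes in at least 1 cell tested (0.0761 and 0.0634). Cd3e was also lost without CD45+ cells of mouse 3 (adjusted p = 0.0834) and with a pseudocount of 0.1 CPM (0.0501). Of the 56 CD45+ cells, 25 expressed 3 or more T and natural killer cell genes together with 3 or more macrophage genes. Of these 25, 17 were in mouse 1, and 6 of 76 GFP+ cells did the same. By themselves, 3 or more macrophage genes were expressed by 55 of 56 CD45+ and 44 of 76 GFP+ cells. The joint count therefore adds little to the count of T and natural killer cell genes and does not measure doublets. Doublets were not removed.

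Dendritic cell and B cell genes gave few calls. Itgax, the integrin CD11c, was higher in CD45+ cells (40.9, 45 and 21.4% against 6.45, 0 and 0%), as was the transcription factor Irf8 by mean level. Fscn1, the actin bundler fascin, listed for mature dendritic cells, was lower: 13.6, 5 and 14.3% of CD45+ cells against 25.8, 94.4 and 62.96% of GFP+ cells expressed it (log2 difference -3.38, SE 0.81, limma adjusted p = 0.00215). Fascin is also known from motile carcinoma cells. Of 8 tested dendritic cell genes these were the 3 called. Without the high-background cells 1 was higher and 1 lower, and Itgax was not tested. None was called without mouse 2, mouse 3 or GFP+ cells of mouse 2, and 0 were higher and 1 lower without CD45+ cells of mouse 2 or GFP+ cells of mouse 3. None of 4 B and plasma cell genes was called by either fit, with 1 at an unadjusted p under 0.05 by mean level; edgeR called 0 and DESeq2 2.

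MHC class II genes, which present antigen to helper T cells, were higher in CD45+ cells. Of 7 tested, 6 were higher by mean level and 4 in both fits, with a median share of 56.5% of CD45+ and 8.16% of GFP+ cells. H2-Ab1 was expressed by 95.5, 80 and 71.4% against 22.6, 11.1 and 14.8% of cells, a log2 difference of 5.56 (SE 0.93, limma adjusted p = 1.37e-06). Cd74, the invariant chain, was expressed by 95.5, 95 and 78.6% of CD45+ cells. It was also expressed by 51.6, 22.2 and 33.3% of GFP+ cells, the highest GFP+ share among the class II genes named. With the high-background cells left out 6 of 6 tested were called, and without mouse 2 there were 2.

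Class I genes, which nearly all nucleated cells express, differed in level more than in share. H2-D1 was expressed by 81.8, 100 and 92.9% of CD45+ and 77.4, 77.8 and 59.3% of GFP+ cells, and its mean log2(CPM+1) was 7.05, 10.64 and 9.38 against 6.68, 5.61 and 5.05 (difference 3.25, SE 0.98, limma adjusted p = 0.0190). H2-K1 had shares of 90.9, 95 and 71.4% against 90.3, 44.4 and 29.6%. In mouse 1 the gates stood close together for both genes, whereas in mice 2 and 3 they stood apart. With H2-Q7 these were the 3 of 11 class I pathway genes called by mean level. None was called by share, where 3 stood at an unadjusted p under 0.05, and edgeR called 0. Without mouse 2, without mouse 3, or without GFP+ cells of either, none of the 11 was called, and 1 was called without CD45+ cells of mouse 3.

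Chemokines went both ways. Of 16 tested, 7 were higher and 3 lower by mean level: Ccl3, Ccl4, Ccl6, Ccl9, Cxcl2, Cxcl3 and the receptor-like Ccrl2 against Ccl2, Ccl7 and Cxcl1. Ccl3, which draws monocytes and T cells, was expressed by 40.9, 60 and 35.7% of CD45+ cells against 0, 11.1 and 7.41% of GFP+ cells (log2 difference 3.99, SE 0.81, limma adjusted p = 1.71e-04). Ccl6 differed by 44.9 percentage points. Cxcl1, a neutrophil attractant, had the opposite order, with 40.9, 20 and 35.7% of CD45+ against 74.2, 94.4 and 62.96% of GFP+ cells (log2 difference -4.94, SE 0.96, adjusted p = 6.86e-05). Once the high-background cells were removed 13 of the genes were tested and gave 4 higher and 3 lower calls. Without mouse 2 the 16 genes gave 1 and 0, without mouse 3 they gave 3 and 1, without GFP+ cells of mouse 2 they gave 5 and 1, without those of mouse 3 they gave 3 and 2, and without CD45+ cells of mouse 2 they gave 4 and 2.

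Transcription factors and adaptors of leukocyte signalling were higher in CD45+ cells. Of 17 tested, 9 were higher by mean level, with Spi1, Lyn and Lcp2 higher in both fits. Spi1, which encodes the myeloid factor PU.1, was expressed by 9.09, 80 and 28.6% of CD45+ cells against 0, 0 and 7.41% of GFP+ cells. The mice thus differed widely: mouse 2 held most Spi1-expressing cells, and mouse 1 lay just above GFP+ cells of mouse 3. The log2 difference was 3.65 (SE 0.76, limma adjusted p = 2.92e-04) and was no longer called without mouse 2 (adjusted p = 0.450) or without mouse 3 (adjusted p = 0.0560), nor on sums by edgeR (5.27, adjusted p = 0.1505) or DESeq2 (4.86, adjusted p = 0.0653). The Src-family kinase Lyn was more even, with 45.5, 55 and 57.1% against 6.45, 5.56 and 3.70%. Lcp2, the adaptor SLP-76, differed by 47.4 percentage points. With the high-background cells left out 9 of 12 tested were called; none was without mouse 2 or without mouse 3, 4 were made without CD45+ cells of mouse 2 or GFP+ cells of mouse 2, and 3 without GFP+ cells of mouse 3.

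PU.1 is a known regulator of myeloid genes, and the 250 bases before the start of each gene were searched for the letters GAGGAAGT, a core PU.1 motif, on both strands. RefSeq promoter sequences (GRCm38.p6) were matched by symbol for 50 of the 67 genes higher in both fits, 419 of the 544 lower and 9927 of all 13024 tested. The letters were found for 6 of the 50 (12%), 6 of the 419 (1.43%) and 283 of the 9927 (2.85%); among all 32851 RefSeq promoters, 2.44% hold them. For comparison the AP-1 letters TGAGTCA were found for 6.00, 4.77 and 4.32% of the same 3 sets. Of the 6 genes, 3 are the neighbouring copies Bcl2a1a, Bcl2a1b and Bcl2a1d and are related by duplication, so they are not separate instances. The windows of Bcl2a1b and of the other 3 genes follow, 5′ to 3′ on the gene's strand, with the matched letters or their reverse complement in capitals, to show how the same letters sit at different distances from the start.
Bcl2a1b, chr9:89199023-89199272, plus strand: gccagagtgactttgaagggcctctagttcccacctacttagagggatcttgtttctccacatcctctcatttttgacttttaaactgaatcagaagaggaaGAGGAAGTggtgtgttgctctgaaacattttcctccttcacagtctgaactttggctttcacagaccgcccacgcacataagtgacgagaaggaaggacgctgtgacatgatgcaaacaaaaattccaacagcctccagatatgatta
C1qc, chr4:136892915-136893164, minus strand: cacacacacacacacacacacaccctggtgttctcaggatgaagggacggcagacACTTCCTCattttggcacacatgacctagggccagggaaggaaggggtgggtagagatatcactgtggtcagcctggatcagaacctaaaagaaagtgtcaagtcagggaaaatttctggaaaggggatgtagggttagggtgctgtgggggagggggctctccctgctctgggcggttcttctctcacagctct
S100a8, chr3:90668821-90669070, plus strand: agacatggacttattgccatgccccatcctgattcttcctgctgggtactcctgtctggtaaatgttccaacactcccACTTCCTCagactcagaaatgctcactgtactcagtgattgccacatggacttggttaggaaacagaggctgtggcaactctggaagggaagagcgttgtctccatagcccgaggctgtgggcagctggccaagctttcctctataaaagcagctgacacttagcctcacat
Samsn1, chr16:75909267-75909516, minus strand: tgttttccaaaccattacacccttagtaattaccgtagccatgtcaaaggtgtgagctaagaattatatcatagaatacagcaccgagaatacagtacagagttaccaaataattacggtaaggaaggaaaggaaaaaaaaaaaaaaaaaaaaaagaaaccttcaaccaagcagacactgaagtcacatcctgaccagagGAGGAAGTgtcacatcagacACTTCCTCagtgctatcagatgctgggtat

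The match begins 148 bases before the start in Bcl2a1b, 195 in C1qc, 172 in S100a8, and 50 and 30 in Samsn1. C1qc, a chain of the complement component C1q, was expressed by 40.9, 65 and 50% of CD45+ cells against 0, 16.7 and 3.70% of GFP+ cells. Samsn1, an adaptor of blood cells, was expressed by 50, 60 and 50% against 0, 11.1 and 0%. C1qc and Samsn1 were chosen for their promoters after their values were seen. The promoter windows of Ptprc, Srgn, Lcp1, Lyz2 and Fcgr3 hold no match to these letters.

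Matrix genes of the fibroblast and stellate cell list were lower in CD45+ cells than in GFP+ cells. Of 19 tested of 22 listed, 10 were lower by mean level and 7 in both fits, with a median share of 20.7% of CD45+ and 57.5% of GFP+ cells. Pcolce, which enhances the trimming of procollagen, had the widest gap of all genes lower in CD45+ cells: 4.55, 15 and 35.7% of CD45+ against 70.97, 100 and 100% of GFP+ cells expressed it (log2 difference -6.90, SE 0.95, limma adjusted p = 7.67e-10). Col3a1, a chain of type III collagen, was expressed by 27.3, 40 and 57.1% against 54.8, 94.4 and 96.3%. In both genes GFP+ cells of mouse 1 had the lowest GFP+ share, and for Col3a1 that share lay below the highest CD45+ mouse. Lum, the proteoglycan lumican, was expressed by 13.6, 20 and 28.6% against 35.5, 72.2 and 81.5%; its mean level was lower by test (log2 difference -4.22, SE 0.89, adjusted p = 3.23e-04) and its share was not (adjusted p = 0.0905). Of 18 tested without the high-background cells 12 were lower. Of the 19 genes, 17 were lower without mouse 1, 16 without GFP+ cells of mouse 1, 4 without mouse 2 and 3 without mouse 3.

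A list of genes of the secretory pathway and matrix processing was lower in part. Of 22 tested, 8 were lower in CD45+ cells by mean level and 6 in both fits: the collagen chains Col4a1 and Col18a1, the protease inhibitors Timp1 and Timp2, and Serpinh1 and Crtap, which act on procollagen. Serpinh1, the collagen chaperone of the endoplasmic reticulum, was expressed by 13.6, 0 and 0% of CD45+ against 38.7, 94.4 and 81.5% of GFP+ cells. Timp1, an inhibitor of matrix proteases, was expressed by 0, 15 and 7.14% against 38.7, 72.2 and 74.1%. Both were rare in every CD45+ mouse. P4hb, a subunit of prolyl hydroxylase and a general disulfide isomerase, was expressed by every GFP+ cell and by 77.3, 100 and 100% of CD45+ cells, and it differed in level by -3.67 (SE 0.91, limma adjusted p = 0.00292). Once the high-background cells were removed 12 of 20 tested were lower; without mouse 1 there were 18 and without GFP+ cells of mouse 1 there were 15. Without mouse 2 there were 2, without mouse 3 there was 1, without CD45+ cells of mouse 3 there were 4, and without GFP+ cells of mice 2 and 3 there were 2 and 3.

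Contractile and adhesion genes gave some of the widest gaps. Cald1, the actin-binding caldesmon, was expressed by 22.7, 10 and 14.3% of CD45+ and 70.97, 94.4 and 88.9% of GFP+ cells. Tm4sf1, a membrane protein of carcinoma and endothelial cells, is not a member of the contractile and adhesion list. It was expressed by 31.8, 25 and 28.6% against 100, 100 and 92.6% (log2 difference -6.55, SE 0.97, limma adjusted p = 2.31e-08). Cyr61, a matricellular target of YAP, differed by -56.7 percentage points. Thbs1, the matricellular thrombospondin, was the exception among 18 tested genes: it was higher by mean level in CD45+ cells (68.2, 65 and 35.7% against 12.9, 16.7 and 14.8%), while 4 members were lower. The 4 became 6 without mouse 1 and 2 without mouse 2 or mouse 3, and Thbs1 was not called without mouse 2, mouse 3 or GFP+ cells of mouse 3.

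Vim, the intermediate filament of mesenchymal cells and of leukocytes, was expressed by most cells of both gates. The shares were 68.2, 85 and 64.3% of CD45+ against 93.5, 100 and 100% of GFP+ cells, with a log2 difference of -3.33 (SE 0.98, limma adjusted p = 0.0161). S100a4 was also lower, in 13.6, 35 and 0% against 61.3, 66.7 and 51.9%. These were the 2 of 17 genes of the mesenchymal transition list called by either fit. With the high-background cells left out 4 of 15 tested were lower, without GFP+ cells of mouse 1 there were 8, and without mouse 1 there were 9 lower and 1 higher. Without CD45+ cells of mouse 1 there were 3 lower and 1 higher, and none was called without mouse 2, without mouse 3, without CD45+ cells of mouse 3 or without GFP+ cells of mouse 2 or 3.

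Epithelial genes did not separate the gates by share. Of 18 tested, Krt8, Krt18 and Krt19 were lower in CD45+ cells by mean level and none was called by share, where 1 stood at an unadjusted p under 0.05; edgeR called 0, and DESeq2 called 2 of the 18 higher and 0 lower. None of the list was called with cells thinned to 100000 counts or with CPM computed without the 100 top genes. Krt19, a keratin of ducts, was expressed by 27.3, 20 and 35.7% of CD45+ against 87.1, 50 and 29.6% of GFP+ cells. The gates overlapped in share, since GFP+ cells of mouse 3 lay below CD45+ cells of mouse 3, and the mean level difference of -2.53 (SE 0.88, limma adjusted p = 0.0497) lay at the threshold. Epcam, the surface protein that marks epithelium in the study's other gates, was expressed by 45.5, 25 and 35.7% of CD45+ and 38.7, 27.8 and 11.1% of GFP+ cells. Its log2 difference of 0.34 had a 95% interval of -1.20 to 1.89 (adjusted p = 0.818), and it turned to -0.77 without the high-background cells. Without those cells 3 of 13 tested were lower, and without GFP+ cells of mouse 3 there were 3 of 18; 1 was without CD45+ cells of mouse 1 or of mouse 2, and none without mouse 1, 2 or 3, without CD45+ cells of mouse 3 or without GFP+ cells of mouse 1 or 2.

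GFP+ cells of mouse 1 had the highest shares for the named keratins and the lowest for the named matrix genes. Krt19 was expressed by 87.1, 50 and 29.6%, Krt7 by 77.4, 50 and 18.5% and Krt8 by 80.6, 72.2 and 40.7% of GFP+ cells of mice 1, 2 and 3. The shares for Lum were 35.5, 72.2 and 81.5% and for Col6a1 35.5, 88.9 and 88.9%. Of the 22 fibroblast genes the median GFP+ cell expressed 7, 15 and 12 in mice 1, 2 and 3. With 1 sample per mouse this is a description of 3 tumours.

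**Figure D3:**
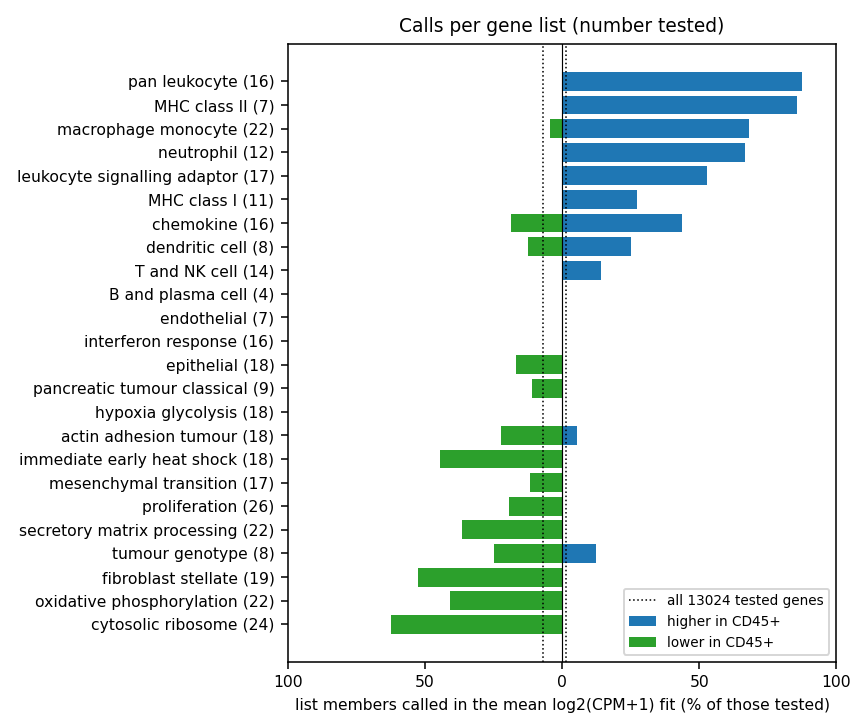
For each gene list with at least 4 tested members (number tested in brackets), bars give the percentage of tested members called higher (blue, right) and lower (green, left) in CD45+ cells by mean log2(CPM+1), and dotted lines give the same for all tested genes (1.44% higher, 6.93% lower). Pan-leukocyte genes (14 of 16) and ribosomal protein genes (15 of 24) mark the ends.

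On sums per mouse the lists gave other counts. edgeR called 6 of the pan-leukocyte, 2 of the leukocyte signalling, 5 of the chemokine (0 lower), 1 of the secretory and matrix processing, 1 of the contractile and adhesion and 0 of the mesenchymal genes. DESeq2 called 14 pan-leukocyte and 9 leukocyte signalling genes higher. It called 15 secretory and matrix processing and 16 fibroblast genes lower. Chemokine genes gave 7 higher and 3 lower calls, contractile and adhesion genes 1 and 6, and mesenchymal genes 1 and 8. Over the 13024 genes DESeq2 called 470 higher and 2294 lower, and edgeR 146 and 30.

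Genes expressed by most cells of both gates were nearly all lower in level when called. There were 452 genes with a mean share of at least 50% in each gate. Among them 2 were counted as higher, H2-K1 and H2-D1, and 100 as lower. The counts of 2 and 100 leave out predicted and clone-named genes, date-like symbols, Xist, Tsix and Y-linked genes, which were not removed from the 452. Spp1, the secreted phosphoprotein osteopontin, was expressed by 95.5, 90 and 100% of CD45+ cells and by all GFP+ cells, and its mean log2(CPM+1) was 8.42, 8.24 and 8.15 against 14.60, 12.54 and 13.30. The share was not called (adjusted p = 0.127), and the level was (difference -5.21, SE 0.84, limma adjusted p = 4.69e-07). Spp1 was listed among macrophage genes, but GFP+ cells carried more of it in every mouse. Hmgn1, a nucleosome-binding protein, stood at 4.99, 5.44 and 3.58 against 10.00, 9.50 and 10.40. Sparc, a collagen-binding matrix glycoprotein, stood at 3.03, 3.78 and 4.22 against 5.75, 10.44 and 9.78. The mitochondrial chaperone Hspd1 differed by -4.77 and the galectin Lgals1 by -4.43.

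Housekeeping groups were lower in CD45+ cells as well. Of 24 genes of the cytosolic ribosome, 15 were lower by mean level and in both fits, and the median member was expressed by 48.1% of CD45+ and 93.2% of GFP+ cells. Rpl8 was expressed by 27.3, 60 and 57.1% against 87.1, 100 and 96.3%, with a log2 difference of -3.89 (SE 0.98, limma adjusted p = 0.00354). On sums per mouse edgeR and DESeq2 called 0 of the 24, while all 24 stood at an unadjusted p under 0.05 by mean level. The 15 calls became 14 without the high-background cells or without mouse 1, 5 without mouse 2 or CD45+ cells of mouse 1, and 0 without mouse 3. They became 2 without CD45+ cells of mouse 3, and 1 and 2 without GFP+ cells of mice 2 and 3.

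Of 22 genes of oxidative phosphorylation 9 were lower by mean level and 7 in both fits; on sums edgeR called 0 and DESeq2 1, with 16 at an unadjusted p under 0.05 by mean level. Atp5o, a subunit of ATP synthase, was expressed by 45.5, 70 and 28.6% of CD45+ and 96.8, 94.4 and 92.6% of GFP+ cells. Romo1, a small protein of the inner mitochondrial membrane and not a member of this list, was expressed by 9.09, 20 and 28.6% against 83.9, 100 and 81.5%. The GFP+ shares of both genes were even between mice. The number of genes at 10 CPM per cell was lower in CD45+ cells of mice 2 and 3 and higher in those of mouse 1. Its part in the share of such widely expressed genes was not tested. In another setting the 111 cells with at least 100000 counts were thinned to that number and the other cells were left out. Of 15142 genes tested there, 149 were higher and 917 lower by mean level. There were 9 calls without the high-background cells, 4 without mouse 2, 0 without mouse 3, 2 and 1 without CD45+ cells of mice 1 and 3, and 2 and 0 without GFP+ cells of mice 2 and 3.

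Immediate early and heat shock genes, which tissue dissociation is known to induce, were lower in CD45+ cells in 8 of 18 cases by mean level and 5 in both fits; on sums edgeR called 0 and DESeq2 4. Egr1, a zinc finger factor of the serum response, was expressed by 77.3, 80 and 92.9% of CD45+ cells and by every GFP+ cell, at a mean log2(CPM+1) of 6.39, 8.51 and 7.01 against 9.75, 12.43 and 11.52. No mouse overlapped in level (difference -3.93, SE 0.92, limma adjusted p = 0.00167). Jun was lower by mean level alone, and GFP+ cells of mouse 1 had 29.03% against 88.9 and 96.3% in mice 2 and 3. Once the high-background cells were removed 10 were lower; without mouse 2 there was 1, without mouse 3 none, without CD45+ cells of mice 1 and 3 there were 5 and 4, and without GFP+ cells of mice 2 and 3 there were 0 and 1.

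Proliferation genes were lower by mean level in 5 of 26 cases and in none by share, where 9 stood at an unadjusted p under 0.05; edgeR called 0 and DESeq2 9. The 5 were genes of DNA synthesis and Birc5: Pcna, the sliding clamp, was expressed by 18.2, 35 and 14.3% of CD45+ against 61.3, 66.7 and 66.7% of GFP+ cells. Mcm6, a subunit of the replicative helicase, was expressed by 31.8, 25 and 28.6% against 61.3, 77.8 and 74.1%. The gates did not overlap in either gene. The count was 10 without the high-background cells or without GFP+ cells of mouse 1 and 11 without mouse 1. It was 3 and 1 without CD45+ cells of mice 1 and 3, and 0 without mouse 2, mouse 3 or GFP+ cells of mouse 2 or 3.

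Among 8 genes that pancreatic tumours often alter, Trp53 and Cdkn2b were lower in CD45+ cells in both fits and Cdkn1a was higher by mean level. Trp53 was expressed by 18.2, 10 and 7.14% of CD45+ cells and 19.4, 94.4 and 66.7% of GFP+ cells. GFP+ cells of mouse 1 lay close to CD45+ cells of mouse 1, and the log2 difference of -3.26 (SE 0.85, limma adjusted p = 0.00533) was not called without mouse 2 (adjusted p = 0.596) or mouse 3 (adjusted p = 0.285), without CD45+ cells of mouse 2 (0.0588) or without GFP+ cells of mouse 2 (0.234) or mouse 3 (0.0799). It was not called on sums by edgeR (-2.09, adjusted p = 0.470) or DESeq2 (-2.26, adjusted p = 0.3005). Cdkn1a, the cell cycle inhibitor p21 and a target of p53, was expressed by 50, 95 and 50% against 19.4, 16.7 and 29.6% (log2 difference 4.08, SE 0.87, adjusted p = 4.03e-04). Of the 8 genes, 4 were lower without mouse 1 or GFP+ cells of mouse 1, none was called without mouse 2, and Cdkn1a alone was called without mouse 3. Sox9, a ductal lineage factor, was the gene called of 9 in the classical tumour list, with 22.7, 15 and 42.9% against 77.4, 88.9 and 81.5% (log2 difference -4.86, SE 0.93, adjusted p = 5.00e-05).

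No gene of the interferon (16 tested), hypoxia and glycolysis (18), endothelial (7), mesothelial (2), acinar and islet (1), mast cell and granulocyte (3) or erythroid and platelet (2) lists was called by limma in either fit. At an unadjusted p under 0.05 by mean level these lists held 2, 3, 1, 0, 0, 1 and 1 genes, and edgeR on sums called 0, 0, 1, 0, 0, 0 and 0. The hypoxia and endothelial genes at that p were lower and the others higher. Over all 13024 genes, 537 were higher and 2175 lower at that p. Pgk1, a glycolytic enzyme, differed by -2.12 (SE 0.98, limma adjusted p = 0.176). It did not reach the threshold, although the mice of the gates did not overlap. With the high-background cells left out the interferon list gave 1 higher call and the hypoxia and endothelial lists 1 lower call each. Without mouse 1 the interferon, mast cell and erythroid lists gave 1 higher call each, the hypoxia list 2 lower calls and the endothelial list 1.

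Weighting cells alike and summing their reads gave different pictures for genes carried by single cells. Mpo, the myeloperoxidase of granulocyte precursors, had 99.6% of its summed CD45+ counts in 1 cell, and edgeR gave it a log2 difference of 10.36 (adjusted p = 0.0366). Its share was 9.09, 20 and 0% of CD45+ and 3.23, 16.7 and 0% of GFP+ cells, with a difference in mean level of 0.66 (SE 0.51, limma adjusted p = 0.476). Ccr7, a homing receptor of lymphocytes and dendritic cells, had 99.0% of its CD45+ counts in 1 cell and was called by edgeR (10.82, adjusted p = 0.0311) and not by limma (1.10, adjusted p = 0.233). Postn, the matrix protein periostin, had 98.1% of its GFP+ counts in 1 cell: edgeR gave -9.13 (adjusted p = 0.0370) and the mean level 0.16 (adjusted p = 0.884). Among genes tested by both, 39 higher and 4 lower calls of edgeR were not calls of the mean level.

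The opposite also occurred. Ltbp1, a binding protein of latent TGF-beta, was expressed by 40.9, 10 and 35.7% of CD45+ against 83.9, 94.4 and 96.3% of GFP+ cells, and the mean level differed by -5.02 (SE 0.96, limma adjusted p = 5.00e-05). In the sums 98.5% of its CD45+ counts came from 1 cell, and edgeR gave -0.71 (adjusted p = 0.787). For Krt19 and Krt7, 97.3 and 96.6% of the CD45+ counts came from a single cell, and edgeR gave -0.39 and -0.18 (adjusted p = 0.892 and 0.953). For Cald1 and Trp53 the highest cell held 89.3 and 90.5%. By contrast the cell with most Lyz2 held 21.99% of the CD45+ counts and that with most Ptprc 25.8%, and both genes were called by limma, edgeR and DESeq2.

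**Figure D4:**
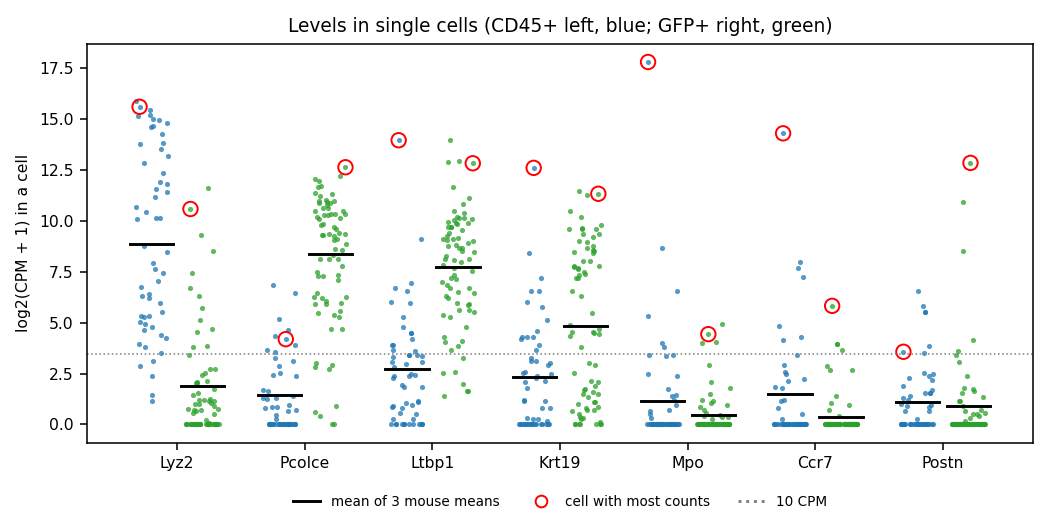
Points are single cells (CD45+ left in blue, GFP+ right in green) by log2(CPM + 1) for 7 genes; black bars are means of the 3 mouse means, red rings mark the cell with most counts of the gene, and the dotted line is 10 CPM. Lyz2 and Pcolce differ across most cells, while for Mpo, Ccr7 and Postn 1 ringed cell stands far above the rest of its gate.

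DNA read from the same cells gave a readout that the RNA comparison did not use. In cells with at least 50000 DNA counts, the share of autosomal DNA counts differed between the gates on 14 of 19 autosomes (limma adjusted p under 0.05; 7 with a higher share in CD45+ cells, 36.8%, and 7 with a lower one, 36.8%). Chromosome 7 held 5.60, 5.96 and 5.63% of the DNA counts of CD45+ and 4.297, 4.48 and 4.37% of those of GFP+ cells of mice 1, 2 and 3 (GFP+ over CD45+ 0.765, adjusted p = 2.76e-04). Chromosomes 4, 9, 10, 12, 13 and 14 were also lower in GFP+ cells, with ratios of 0.780 to 0.810. Chromosome 3 had the widest difference in the other direction, with 6.48, 5.94 and 6.44% against 9.12, 7.54 and 8.11% (ratio 1.31, adjusted p = 0.00295), and chromosomes 1, 2, 5, 15, 17 and 19 were higher at 1.09 to 1.25. In each of these 14 but chromosome 19 no mouse of one gate overlapped the other. Shares of a cell add up to a fixed total, so lower shares on some autosomes raise those of the others. The ratios are therefore not copy numbers, and the part of this in the higher shares was not tested. Chromosome 11 was not called (limma adjusted p = 0.146), with 5.17, 5.97 and 5.48% in CD45+ against 5.41, 6.91 and 6.54% in GFP+ cells. Its share was higher in GFP+ cells within each mouse, and it was called with the mouse as a block.

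**Figure D5:**
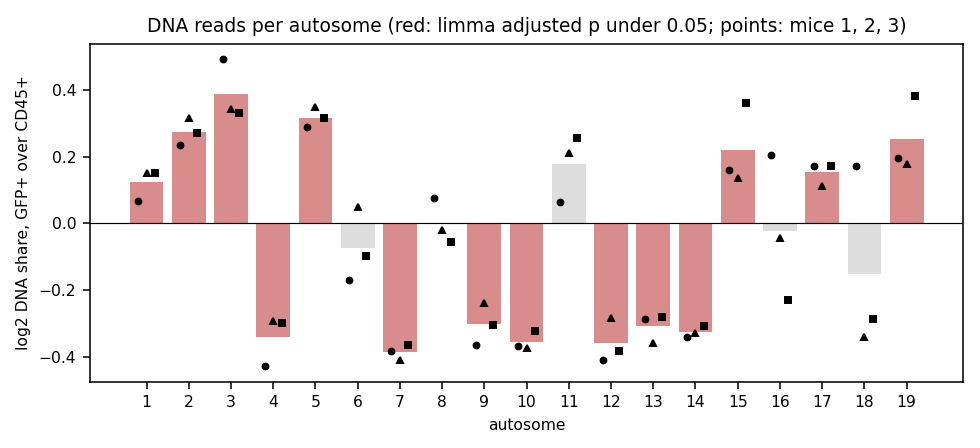
Bars give the log2 ratio of the DNA share of each autosome, GFP+ over CD45+ cells, from means over 3 mice (red where limma's adjusted p was under 0.05, grey otherwise), and points the same ratio within mice 1 (circle), 2 (triangle) and 3 (square). Chromosomes 4, 7, 9, 10, 12, 13 and 14 lie below 0 in every mouse and chromosomes 1, 2, 3, 5, 15, 17 and 19 above it. Chromosome 11, which was not called, also lies above 0 in every mouse.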

How the data were processed

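RNA and DNA of single cells sorted by flow cytometry were sequenced after SMART-Seq2 amplification of oligo-dT primed RNA and whole-genome amplification of DNA, per the labels' protocols. Per the series' design text, each cell gave 1 mixed library whose exonic reads stand for RNA and whose remaining reads stand for DNA, so exonic DNA reads can enter the RNA values. The RNA values, as deposited by the authors, are estimated counts for each gene symbol and are not normalized. The DNA values are whole-number counts per genomic bin as deposited by the authors; STAR, kallisto, Bowtie 1.0 and build mm9 are named without a role per the submitters' processing notes. CPM was computed from the expected counts of each cell, and these were rounded for edgeR 4.0.16 and DESeq2 1.42.0, which ran on sums per mouse. limma 3.58.1 (R 4.3.3) was fitted with a trend to mean log2(CPM+1) and to the arcsine square root of the share of cells at 10 CPM or more, for 13024 genes at 10 CPM in at least 10 kept cells; DNA shares were fitted without a trend. The replicate is the mouse. limma's p-values for RNA measure a spread between mice pooled over genes of a similar mean level, and hardly a gene's own spread. Same-numbered gates come from 1 animal by the labels, and their deviations correlated at 0.365, 0.136 and 0.166; the main fits carry no block.

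On simulated data the fit of means recovered 30.9, 98.4 and 100% of genes changed 4, 16 and 64-fold, with 7 false calls. The fit of shares recovered 2.94, 55.6 and 97.1% of them, with 3 false calls. The simulated cells were not shown to carry differences between mice like those of the real cells. Their recovery and false calls therefore do not measure the error of the real calls, which moved with the mice left out. No doublet caller was run. As a check for duplicated libraries, DNA bin counts were compared between cells with at least 50000 DNA counts. In 1118 pairs of the same mouse and gate, they differed by more than sampling noise (lowest chi-square per degree of freedom 1.84). Genes named were fixed genes (Ptprc, Epcam, Krt19, Vim, Lum, Lyz2), the 12 with the widest gap in share in each direction among genes called in both fits without overlap of mice, the 8 largest level differences among broadly expressed genes, the 8 largest among calls of edgeR alone, and the 4 smallest p of each list; further list members were named after their values were seen. Members and lists were chosen with earlier results of these data known. Leaving out cells with over 5% of olfactory receptor genes at 10 CPM was chosen after seeing the data.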

Additional observations from a re-analysis of the deposited data

How the results depend on the processing

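By mean level 1089 genes were called; edgeR on sums called 210 and DESeq2 3228, and leaving out a mouse or a gate of a mouse gave 67 to 2230. Other settings (pseudocount, trend, cell and gene filters, thinning, 4 gates in 1 fit, top genes removed) gave 783 to 1613. By share 738 were called, against 172 at a threshold of 1 CPM, 0 at 100 CPM (limma; 1801 at an unadjusted p under 0.05), 190 in a fit of all 4 primary gates, 1774 without the high-background cells and 191 to 773 in the leave-outs. The cause was not tested; some of these settings also change how many genes or samples are tested. With the mouse as a block, 1308 genes were called by share (144 higher, 1164 lower) and 1479 by mean level (259 and 1220), and 15 autosomes. The block lost no call of a named gene. DNA shares were called on 10 to 17 autosomes in the leave-outs.

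Reversals touched differences that were not called in the main fits, among them the share of Krt18 (arcsine scale), which turned to 0.0272 at 1 CPM. Epcam turned to -0.77 in level and -0.217 in share without the high-background cells and to -0.0792 in share at 100 CPM; its level ran from -0.0936 to 0.664 in the leave-outs. Postn turned to -0.12 with a pseudocount of 10 CPM and -9.13 by edgeR, and its level ran from -0.199 to 0.759 in the leave-outs; its share was -0.173 at 100 CPM (leave-outs -0.00768 to 0.255). The share of Ccr7 ran from -0.0271 to 0.236 in the leave-outs and that of Mpo from -0.0472 to 0.185, with -0.0500 after thinning. The log2 DNA share of chromosome 8 was -0.0256 with medians over cells and -0.0270 to 0.0384 in the leave-outs, and that of chromosome 16 -0.0793 to 0.138. Cells under 100000 counts limit the share of low genes, since 1 count then exceeds 10 CPM: 49 CD45+ and 62 GFP+ cells had at least that many.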

Other observations

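Bulk libraries of the same gates by their titles, which entered no fit, were set beside the single cells as values. The mouse 1 library titled GFP carries the marker label EpCam, so its gate is uncertain, and it was used by its title. The CD45+ bulk library of mouse 1 held 121118 RNA counts, with 68.5% of olfactory receptor genes at 10 CPM or more, against 0.0903 and 0% in the GFP+ bulk libraries of mice 1 and 2. Of the 67 genes higher in both fits, 56 (83.6%) stood above both GFP+ bulk libraries in the CD45+ bulk library, as did 65.6% of all tested genes. Of the 544 lower genes, 500 (91.9%) stood below both, against 24.4% of all tested genes. With 1 CD45+ bulk library there is no test.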
